A study of Mus musculus with 8 samples.

Results

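The transcription factor ATF4, the enzymes of serine, glycine, asparagine and proline synthesis and the cytosolic tRNA synthetases form an amino acid response that was read here in mesenchymal cells of the mouse large intestine. The set holds 36 genes taken as a fixed list of symbols, out of 24346 symbols in each deposited table, and all 36 were listed in all 8 libraries. By role they are 6 transcription regulators, 7 stress targets and feedback genes, 7 enzymes of serine, glycine and one-carbon metabolism, 6 enzymes of asparagine, proline, alanine and cysteine metabolism, and 10 tRNA synthetases.

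When amino acids run short or unfolded proteins accumulate in the endoplasmic reticulum, kinases phosphorylate the translation factor eIF2. General translation then slows, while the Atf4 mRNA is translated more, so that ATF4 activity is controlled largely at the protein level and the Atf4 transcript is only a partial readout. ATF4 binds composite C/EBP-ATF elements, often with a C/EBP partner, and its known targets make and load amino acids, feed one-carbon units into nucleotide synthesis, and switch the response off again.

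All cells were sorted by the same gate, which per the labels kept large intestinal mesenchymal cells positive for gp38 (podoplanin) and high for PDGFRα, and dropped cells carrying CD45, EpCAM, CD31 or Ly6C. C57BL/6 mice gave 3 libraries at 6 h and 3 at 0 h of GABA (1 mM) and taurine (20 mM), called here the GABA and taurine libraries. The other 2 libraries, called the genotype libraries, were untreated: 1 of genotype Foxl1cre; Cxcl12 flox/flox, the conditional knockout, and 1 of its Cxcl12 flox/flox control. Both therefore carry the floxed alleles of the chemokine gene Cxcl12, and the Cre is driven by Foxl1, a gene of mesenchymal cells under the gut epithelium. No 6 h library without the 2 amino acids was analysed here, so time and treatment cannot be told apart. The sources used here do not give ages, the number of mice behind a library or whether the cells were cultured.

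Values are FPKM, fragments scaled by transcript length and library size, so that levels can be compared between genes per length. Read depth is unknown; total FPKM per library ran from 513001 to 579004. Of the 24346 genes, 14818 to 14974 had a value above 0 in the GABA and taurine libraries, 20874 in the Foxl1-cre library and 21006 in the control library. Labels number the replicates without calling them separate animals or cultures, and the p-values given here reflect only library-to-library spread, possibly technical. Cxcl12, the targeted gene, was at 739.7 FPKM in the Foxl1-cre library and at 1298 FPKM in the control library. The gate gene Pdgfra was present in all 8 libraries, at 152 to 227 FPKM in the GABA and taurine libraries, 226 FPKM in the Foxl1-cre library and 202 FPKM in the control library. Foxl1 did not exceed 0.289 FPKM in any GABA and taurine library, against 11.6 FPKM in the Foxl1-cre library and 10.2 FPKM in the control library. Pdpn, which encodes gp38, was at 281 to 304 FPKM in the GABA and taurine libraries, 91.7 FPKM in the Foxl1-cre library and 96.1 FPKM in the control library. Ly6c1, which encodes an antigen the gate excludes, was at 8.76 to 12.4 FPKM in the GABA and taurine libraries, 89.6 FPKM in the Foxl1-cre library and 141 FPKM in the control library. In such bulk samples, fewer cells of a type and less RNA per cell cannot be told apart.

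Levels differed widely within the set. In the GABA and taurine libraries the highest medians were those of Nars, the asparaginyl-tRNA synthetase, at 428 FPKM, and Ppp1r15a, the phosphatase subunit that removes the phosphate from eIF2, at 406 FPKM. The lowest were those of Cbs, the first enzyme of transsulfuration, and Ddit4, an inhibitor of mTORC1, both under 1 FPKM. Cbs did not exceed 1.19 FPKM in any library and was in no comparison.

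**Figure D1:**
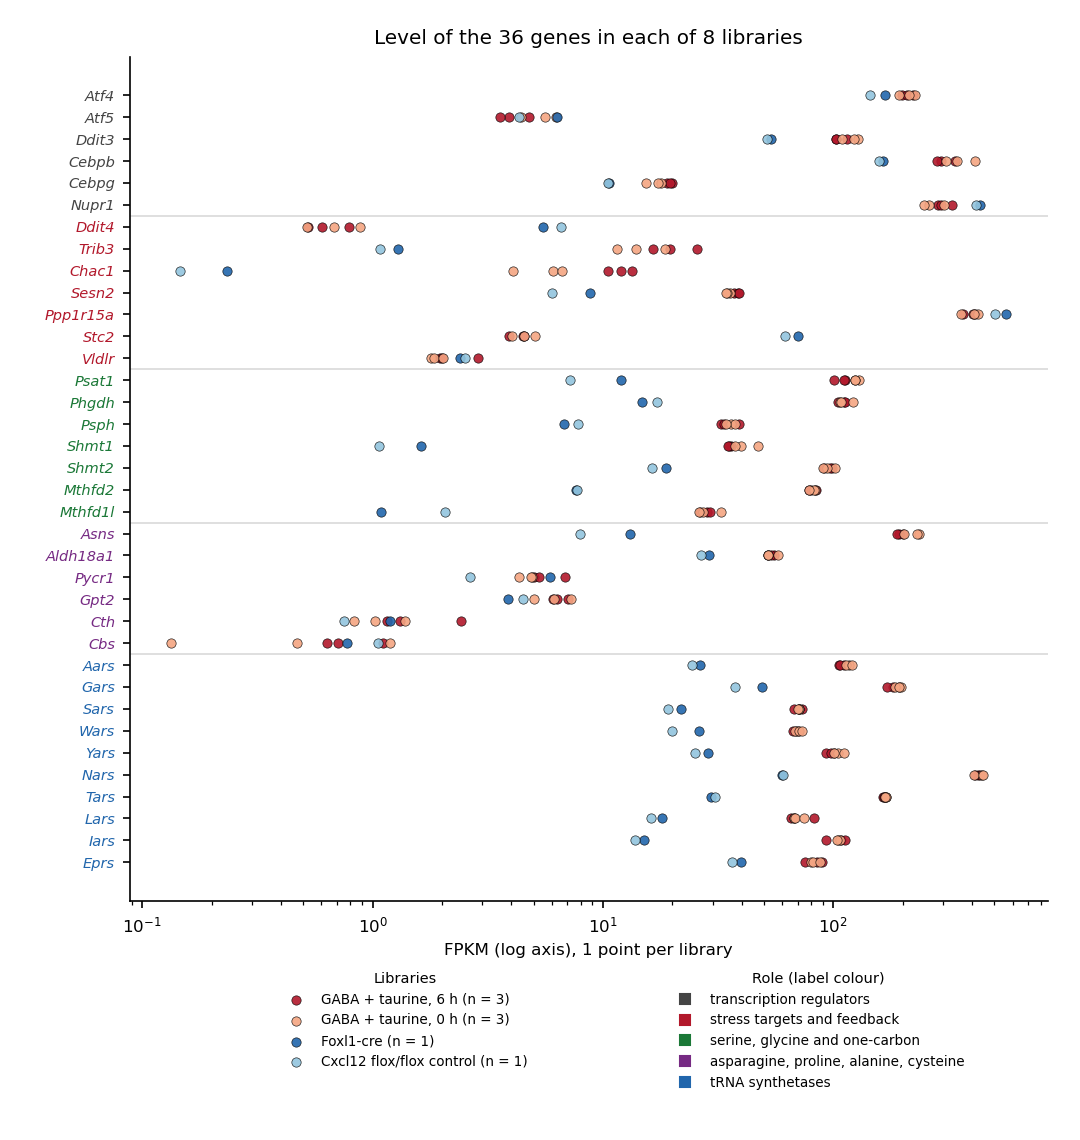
FPKM of each of the 36 genes in each library on a log axis, 1 point per library, with the genes ordered by role. The 10 tRNA synthetases and the 7 serine, glycine and one-carbon enzymes have all 6 GABA and taurine libraries above both genotype libraries.

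The composite element that ATF4 binds has the core TGATGNAA, and it was searched on both strands of the RefSeq promoter windows (250 bases before to 50 after the annotated start, assembly GRCm38.p6). Of 32 members with a window, 11 (34.4%) held it, against 1219 of 27025 genes with a window (4.51%). These were 5 of 7 tRNA synthetases, 3 of 7 stress targets, 2 of 5 enzymes of asparagine, proline, alanine and cysteine metabolism, 1 of 6 transcription regulators and 0 of 7 serine, glycine and one-carbon enzymes. Outside the set, 4 of 13 other ATF4 targets (30.8%) and 2 of 6 amino acid transporters known as ATF4 targets (33.3%) held it, close to the members' share. It was in 0 of 5 other cytosolic tRNA synthetases. Known ATF4 targets are among the members, so the share is a description. Cth, Wars, Nars and Lars are named only. The windows of Chac1 (glutathione breakdown, the only member that passed the time test) and Asns (asparagine synthetase, with the largest log2(FPKM + 1) difference between library sets) are printed in full up to the start, on the strand of the gene, with the core in capitals; TTGCATCA is the core read on the other strand. The first of the 2 windows of Psat1, the serine synthesis gene with the smallest adjusted p among members lower at 6 h, is shown beside them, and neither of its windows holds a match.
Chac1, chr2:119350992-119351241, plus strand: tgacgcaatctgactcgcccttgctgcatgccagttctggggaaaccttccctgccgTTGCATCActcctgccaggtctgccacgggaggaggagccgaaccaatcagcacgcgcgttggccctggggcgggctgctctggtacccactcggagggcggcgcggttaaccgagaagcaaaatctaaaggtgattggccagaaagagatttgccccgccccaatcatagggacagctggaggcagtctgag
Asns, chr6:7693210-7693459, minus strand: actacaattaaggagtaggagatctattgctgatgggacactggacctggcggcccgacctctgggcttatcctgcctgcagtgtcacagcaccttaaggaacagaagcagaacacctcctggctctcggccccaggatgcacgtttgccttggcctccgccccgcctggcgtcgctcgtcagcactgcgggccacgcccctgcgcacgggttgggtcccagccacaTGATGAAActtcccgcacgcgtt
Psat1, chr19:15925060-15925309, minus strand: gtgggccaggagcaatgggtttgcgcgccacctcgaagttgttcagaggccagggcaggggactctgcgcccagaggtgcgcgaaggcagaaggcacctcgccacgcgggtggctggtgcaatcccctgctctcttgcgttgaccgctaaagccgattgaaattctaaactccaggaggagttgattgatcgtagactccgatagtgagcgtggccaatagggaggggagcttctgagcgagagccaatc

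Further matches are shown as 30 bases in the direction of the core, for Trib3, which had the second largest positive time difference, for Pycr1, and for 4 tRNA synthetases, so that their flanks can be compared.
Trib3, chr2:152344028-152344057, plus strand: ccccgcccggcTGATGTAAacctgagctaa
Pycr1, chr11:120643833-120643862, minus strand: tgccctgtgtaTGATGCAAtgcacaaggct
Gars, chr6:55037960-55037989, minus strand: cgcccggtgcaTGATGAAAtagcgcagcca
Iars, chr13:49682126-49682155, minus strand: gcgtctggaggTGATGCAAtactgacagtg
Tars, chr15:11399655-11399684, plus strand: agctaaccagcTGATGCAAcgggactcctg
Yars, chr4:129189895-129189924, plus strand: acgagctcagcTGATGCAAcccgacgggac
Matches also lay in Nupr1 and in 1 of the 2 windows of Vldlr. A match is only a match of letters, and binding was not measured.

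Between 6 h and 0 h of GABA and taurine, 1 of the 34 members tested passed the threshold; Ddit4 and Cbs were too low to be tested. Chac1, which encodes a gamma-glutamylcyclotransferase that breaks down glutathione and is a known ATF4 and CHOP target, rose. Asns, Psat1 and the cytosolic serine hydroxymethyltransferase Shmt1 had lower values in all 3 libraries at 6 h than in any at 0 h and did not pass, and the tRNA synthetases stayed within narrow intervals around no difference. The test was limma on log2(FPKM + 1) over 10910 genes whose mean across the 6 libraries reached 1 FPKM, with Benjamini-Hochberg adjustment and a threshold of 0.05. The 1 member higher at 6 h compares with 0.238% of all genes tested, and 0 members passed as lower, against 0.312% of all genes. At an unadjusted p under 0.05, 3 members were higher and 5 lower at 6 h, 8 of 34 where all genes gave 9.38%. That count was smaller without replicate 2 at 6 h (1 higher and 2 lower), without replicate 2 at 0 h (3 higher and 2 lower) and with no intensity trend (2 higher and 2 lower).

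Chac1 (chromosome 2, 119351242 to 119354326, mm10) was at 10.5, 11.9 and 13.3 FPKM in the 3 libraries at 6 h and at 4.06, 6.10 and 6.62 FPKM in the 3 at 0 h. Every 6 h library lay above every 0 h library. The means were 11.9 ± 1.39 FPKM at 6 h and 5.59 ± 1.35 FPKM at 0 h (SD, n = 3 each), a 2.13-fold ratio, and limma gave a log2 difference of 0.99 ± 0.16 (SE) with an adjusted p of 0.0275. The call held in 5 of the 12 alternatives that tested the gene, with adjusted p-values from 0.00641 to 0.314. It was lost with no filter on low values (0.314), with no intensity trend (0.291), without replicate 1 (0.0683) or replicate 2 (0.115) at 0 h and without replicate 1 (0.0573), replicate 2 (0.144) or replicate 3 (0.0606) at 6 h. The log2 difference was between 0.68 and 1.1 in all 12.

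The summed level of the 15 epithelial markers was also higher at 6 h, at 4.91 to 8.43 FPKM at 6 h and 2.78 to 4.61 FPKM at 0 h, with no overlap. Krt8, a keratin of simple epithelia, was at 2.12, 1.75 and 2.31 FPKM at 6 h and 0.271, 0.729 and 0.188 FPKM at 0 h. Of the 15 markers, 3 had all values at 6 h above those at 0 h and 0 had all values below. Among them 10 were under 1 FPKM in all 6 libraries and Fabp2 was at 0 in all 6. Guca2a overlapped, at 0.156, 0 and 0.491 FPKM at 6 h and 0.809, 0.148 and 0.141 FPKM at 0 h. Of the 8 markers of the gate and of mesenchymal cells, 3 were also higher at 6 h with no overlap: Pdgfra, Col3a1 and Ly6c1. The last encodes an antigen the gate excludes. The sums of the 8 overlapped. Among all genes tested in the time comparison, 7.25% were higher at 6 h with no overlap and 8.01% were lower. The part of epithelial or other cells in the Chac1 result was not tested.

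Trib3 (chromosome 2, 152337425 to 152344060), a pseudokinase that restrains ATF4 and CHOP, was at 16.5, 25.6 and 19.6 FPKM at 6 h and 13.9, 18.6 and 11.5 FPKM at 0 h. The groups overlapped, since the second 0 h library exceeded the lowest 6 h library. Its log2 difference was 0.46 (95% interval 0.10 to 0.83, limma adjusted p = 0.387). Sesn2, a sestrin that restrains mTORC1 when leucine is scarce, was at 36.9, 38.5 and 39 FPKM at 6 h and 35.7, 34.4 and 34.3 FPKM at 0 h. Its groups did not overlap, but the limma adjusted p was 0.606. The remaining stress targets tested, Ppp1r15a, Stc2 (the secreted glycoprotein stanniocalcin 2) and Vldlr (a lipoprotein receptor), overlapped between the times, with log2 differences of -0.06 to 0.17. Ddit4 was under the minimum for the test, at 0.601, 0.524 and 0.791 FPKM at 6 h and 0.521, 0.681 and 0.882 FPKM at 0 h.

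Among the transcription regulators, Atf4 itself (chromosome 15, 80255184 to 80257545) was nearly level. It was at 199.6, 221 and 208 FPKM at 6 h and 226, 213 and 193 FPKM at 0 h, and its log2 difference was -0.01 (95% interval -0.15 to 0.13, limma adjusted p = 0.985). The interval bounds the transcript only and not the ATF4 protein. Ddit3, which encodes the stress factor CHOP, was at 102, 103 and 115 FPKM at 6 h and 128, 123 and 109 FPKM at 0 h. Its groups overlapped and its log2 difference was -0.17 (limma adjusted p = 0.482).

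Cebpg, which encodes a C/EBP partner of ATF4, was at 18.9, 19.9 and 19.6 FPKM at 6 h and 15.4, 17.8 and 17.3 FPKM at 0 h. All 6 h values lay above all 0 h values, at a log2 difference of 0.20 (95% interval 0.01 to 0.39, limma adjusted p = 0.511). Its relative Cebpb had the opposite sign, with a log2 difference of -0.22, and overlapped. Atf5, a factor translated under the same control as ATF4, had -0.33, and Nupr1, a stress-induced transcriptional co-regulator, had 0.16, both with overlapping groups.

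**Figure D2:**
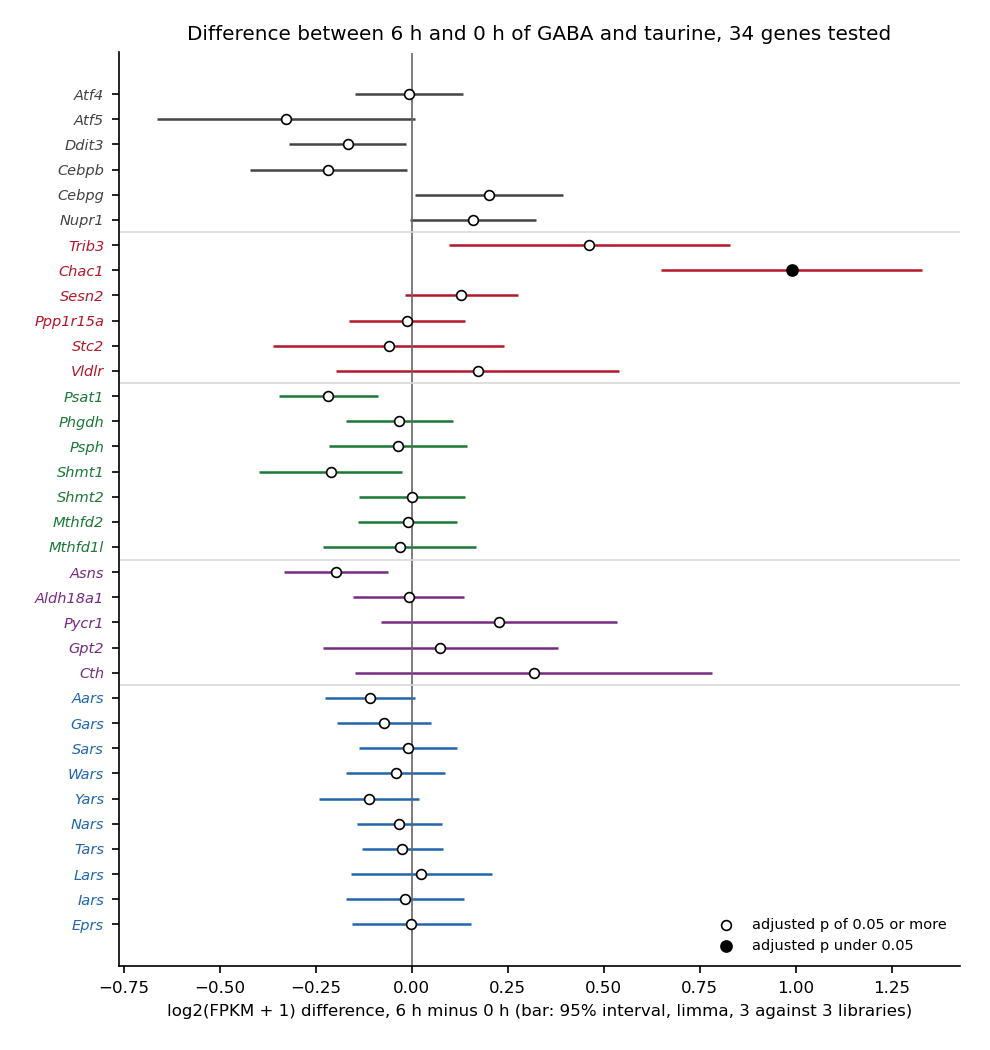
Difference in log2(FPKM + 1) between 6 h and 0 h for the 34 members tested, with the 95% interval from limma over 3 against 3 libraries. Chac1, at 0.99, is the only filled point, and the intervals of the 10 tRNA synthetases all lie between -0.24 and 0.21.

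Serine synthesis runs from a glycolytic intermediate through Phgdh, Psat1 and Psph, after which Shmt1 and Shmt2 make glycine and one-carbon units. Mthfd2 and Mthfd1l process one-carbon units in mitochondria. Psat1 (phosphoserine aminotransferase, chromosome 19, 15905123 to 15925059) was at 113, 111 and 101 FPKM at 6 h and 129.7, 125 and 124 FPKM at 0 h. Its groups did not overlap, and the means were 108 ± 6.30 FPKM at 6 h and 126 ± 3.26 FPKM at 0 h (SD, n = 3 each). The log2 difference of -0.22 (95% interval -0.35 to -0.09) did not pass, at a limma adjusted p of 0.181. Shmt1 was at 35.95, 35.4 and 35.1 FPKM at 6 h and 39.6, 47.2 and 37.5 FPKM at 0 h, again with no overlap, and its log2 difference of -0.21 (95% interval -0.40 to -0.03) did not pass either (limma adjusted p = 0.455).

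Phgdh, the first enzyme of the pathway, did not share the pattern of Psat1. It was at 104, 112 and 112 FPKM at 6 h and 122, 107 and 108 FPKM at 0 h, with overlapping groups and a log2 difference of -0.03. Mthfd2 was at 84.3, 79.9 and 78.2 FPKM at 6 h and 83.01, 82.4 and 78.8 FPKM at 0 h. Mthfd1l was at 28.3, 29.2 and 26.3 FPKM at 6 h and 27.2, 26.2 and 32.5 FPKM at 0 h. Both overlapped, as did Psph and Shmt2, and these 4 genes had log2 differences between -0.04 and 0.00.

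Asns (chromosome 6, 7675165 to 7693209), which makes asparagine from aspartate and glutamine, was at 200.2, 194 and 188 FPKM at 6 h and 235, 202 and 231 FPKM at 0 h. The 3 libraries at 6 h were all below the 3 at 0 h. Means were 194 ± 6.03 FPKM at 6 h and 223 ± 17.9 FPKM at 0 h (SD, n = 3 each), with a log2 difference of -0.20 (95% interval -0.33 to -0.06) and a limma adjusted p of 0.314. Pycr1, the last enzyme of proline synthesis in mitochondria, was at 5.01, 5.29 and 6.83 FPKM at 6 h and 4.93, 4.88 and 4.31 FPKM at 0 h. Its groups did not overlap and its log2 difference was 0.23 (95% interval -0.08 to 0.53, limma adjusted p = 0.671). Aldh18a1, the first enzyme of proline synthesis, Gpt2, the mitochondrial alanine aminotransferase, and Cth, which releases cysteine from cystathionine, overlapped between the times.

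Values at the 2 times did not overlap for 4 members higher at 6 h (Cebpg, Chac1, Sesn2 and Pycr1), against 7.25% of all genes, and for 5 lower (Psat1, Shmt1, Asns, Aars and Tars), against 8.01% of all genes. The members' median log2 difference was -0.02, and that of all genes tested was -0.00. Signs split as 11 positive and 23 negative, but as 17 and 17 when libraries were scaled to the same upper quartile, so the split by sign depends on the scaling. Of all genes tested, 49.5% were positive as deposited and 53.5% under that scaling.

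The 10 tRNA synthetases, which load amino acids onto their tRNAs, varied little. Their log2 differences ran from -0.11 for Yars to 0.02 for Lars, with 95% intervals within -0.24 and 0.21, and the median coefficient of variation between replicates was 3.62%. None passed in limma, and none had an unadjusted p under 0.05. Aars, the alanyl enzyme, was at 106, 111 and 107 FPKM at 6 h and 117, 114 and 120.0 FPKM at 0 h. Tars, the threonyl enzyme, was at 165, 167 and 167 FPKM at 6 h and 170.1, 169 and 168 FPKM at 0 h. Both had groups that did not overlap, at log2 differences of -0.11 for Aars and -0.02 for Tars. Exons of Aars share 1326 bases with Exosc6 on the same strand, so part of the value of Aars cannot be told apart from Exosc6.

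**Figure D3:**
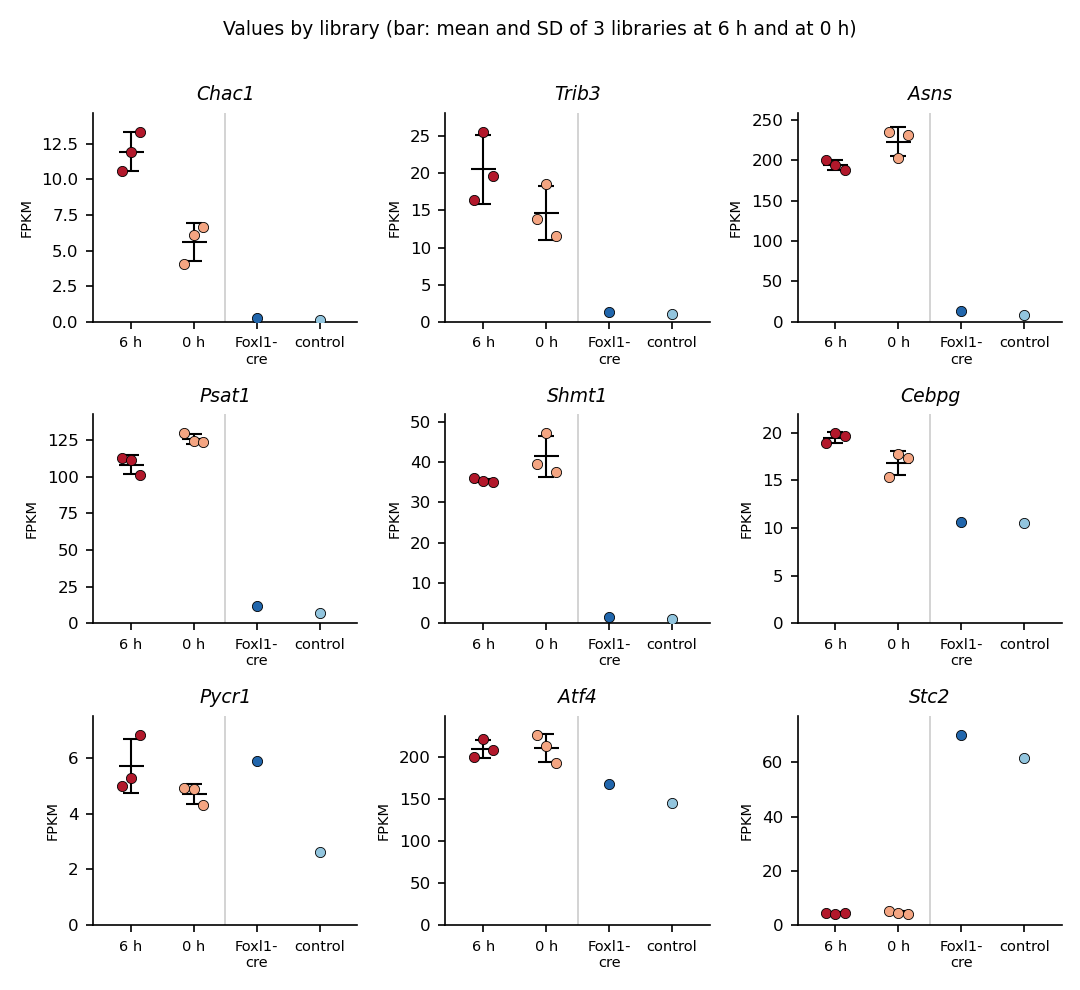
FPKM by library for 9 members; bars at 6 h and 0 h are the mean and SD of 3 libraries, and Foxl1-cre and control are 1 library each. Chac1, Cebpg and Pycr1 have all 6 h points above all 0 h points, Asns, Psat1 and Shmt1 have all 6 h points below them, and Stc2 stands out by its genotype libraries at 70.2 and 61.8 FPKM.

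Between the library sets, Asns, the enzymes of serine, glycine and one-carbon metabolism and the tRNA synthetases were higher in the GABA and taurine libraries at both times, while the stress targets Stc2 and Ddit4 were lower. Of 35 members that averaged 1 FPKM or more over the 8 libraries, 23 were at least 2-fold higher with no overlap, against 19.7% of all genes, and 2 were at least 2-fold lower, against 21.9% of all genes. At any size, 27 did not overlap and were higher, against 41.3% of all genes, and 4 did not overlap and were lower, against 37.8% of all genes. The median log2 difference was 1.87 for the members and 0.05 for all genes, whose middle range between quartiles was -0.86 to 0.81. The minimum left out Cbs; Chac1 and Cth passed it only through the GABA and taurine libraries, and Ddit4 only through the genotype libraries. The sets differ in floxed alleles and treatment, and possibly in strain and handling, all of which cannot be told apart, and they may have been normalised separately, so these values are a description with no test. With the 0 h libraries alone as the GABA and taurine set, the counts were also 23 higher and 2 lower. All genes gave 2419 higher and 3261 lower of 12693 in that setting.

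Asns had the largest difference on the log2(FPKM + 1) scale, at 4.17, although the ratios of medians of Shmt1 and Chac1 were larger. It had a median of 201 FPKM in the GABA and taurine libraries (lowest 188, highest 235), against 13.1 FPKM in the Foxl1-cre library and 7.97 FPKM in the control library, a 19.1-fold ratio of medians. All 6 values lay far above both of the others. The other enzymes of its group differed less: Aldh18a1 had a log2 difference of 0.91, Pycr1 and Cth overlapped between the sets, and Gpt2 was under 2-fold.

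All 7 serine, glycine and one-carbon enzymes were at least 2-fold higher. Shmt1 had a median of 36.7 FPKM in the GABA and taurine libraries, against 1.62 FPKM in the Foxl1-cre library and 1.07 FPKM in the control library, a 27.3-fold ratio of medians. Psat1 had a median of 118 FPKM, against 11.98 FPKM in the Foxl1-cre library and 7.21 FPKM in the control library (12.3-fold). For each of the 7, all 6 GABA and taurine libraries lay above both genotype libraries. The level of Psph, and its part in the sum of the 7, is uncertain. Psph shares exon sequence with Cct6a, a gene also higher in the GABA and taurine libraries. Phgdh, which makes the substrate of Psat1, had a smaller ratio of 6.86-fold, with a median of 109.8 FPKM against 14.8 FPKM in the Foxl1-cre library and 17.2 FPKM in the control library. Mthfd2 and Mthfd1l, which carry mitochondrial one-carbon units towards formate, were 10.6-fold and 17.6-fold higher. Mthfd2 was at 7.66 FPKM in the Foxl1-cre library and 7.68 FPKM in the control library, and Mthfd1l at 1.08 FPKM in the Foxl1-cre library and 2.06 FPKM in the control library. The summed level of the 7 enzymes was 483 to 539 FPKM in the GABA and taurine libraries, 62.7 FPKM in the Foxl1-cre library and 59.4 FPKM in the control library.

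All 10 tRNA synthetases were at least 2-fold higher, with log2 differences from 1.12 for Eprs, the fused glutamyl-prolyl enzyme, to 2.81 for Nars. Nars had a median of 428 FPKM in the GABA and taurine libraries, against 60.02 FPKM in the Foxl1-cre library and 60.5 FPKM in the control library. Iars, the isoleucyl enzyme, had a median of 106 FPKM, against 15.1 FPKM in the Foxl1-cre library and 13.8 FPKM in the control library. The 10 genes together summed to 1332 to 1449 FPKM in the GABA and taurine libraries, 314 FPKM in the Foxl1-cre library and 283 FPKM in the control library.

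The stress targets split. Trib3 had a median of 17.5 FPKM in the GABA and taurine libraries, against 1.29 FPKM in the Foxl1-cre library and 1.08 FPKM in the control library (14.8-fold). Chac1 was at 0.233 FPKM in the Foxl1-cre library and 0.146 FPKM in the control library, so that its 45.3-fold ratio of medians rests on values close to 0. Sesn2 had a median of 36.3 FPKM in the GABA and taurine libraries, against 8.80 FPKM in the Foxl1-cre library and 6.00 FPKM in the control library (4.90-fold). These 3 genes had all GABA and taurine libraries above both genotype libraries. Stc2 went the other way, at 4.48, 3.91 and 4.53 FPKM at 6 h and 5.07, 4.54 and 4.02 FPKM at 0 h, against 70.2 FPKM in the Foxl1-cre library and 61.8 FPKM in the control library, where the median was 14.6-fold higher. Ddit4 was at 5.48 FPKM in the Foxl1-cre library and 6.6 FPKM in the control library, both above its highest value of 0.882 FPKM in the GABA and taurine libraries. Chac1 and Ddit4 passed the minimum only through the libraries where they were high. Stress targets lay on both sides of no difference without them too, with Trib3 and Sesn2 higher and Stc2 lower.

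The transcription regulators differed by less than the enzymes of serine synthesis and the tRNA synthetases, with median log2 differences of 0.59 for the regulators, 3.24 for the enzymes of serine, glycine and one-carbon metabolism and 2.02 for the tRNA synthetases. Atf4 had a median of 211 FPKM in the GABA and taurine libraries, against 168 FPKM in the Foxl1-cre library and 145 FPKM in the control library, a 1.35-fold ratio. Ddit3, at 53.6 FPKM in the Foxl1-cre library and 51.5 FPKM in the control library, and Cebpb were just past 2-fold. Cebpg, at 10.6 FPKM in the Foxl1-cre library and 10.5 FPKM in the control library, was 1.74-fold higher in the GABA and taurine libraries. With upper-quartile scaling the median of all genes moved to -0.25, the members gave 20 higher and 2 lower, and Ddit3, Cebpb and Eprs were no longer past 2-fold, at log2 differences of 0.74, 0.66 and 0.78. Under that scaling all genes gave 1581 higher and 3356 lower of 12043. Of the genes past 2-fold, 32.0% were then higher, against 47.4% without the scaling.

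Marker sums also differed between the sets. The 8 markers of the gate and of mesenchymal cells, Ly6c1 included, summed to 2014 to 2181 FPKM in the GABA and taurine libraries, 8053 FPKM in the Foxl1-cre library and 7134 FPKM in the control library. They did not move together: the collagen gene Col3a1 was at 112 to 139 FPKM in the GABA and taurine libraries, 4176 FPKM in the Foxl1-cre library and 3613 FPKM in the control library. Vim, the mesenchymal filament gene vimentin, went the other way, at 1165 to 1344 FPKM in the GABA and taurine libraries, 605 FPKM in the Foxl1-cre library and 532 FPKM in the control library. Epithelial markers summed to 2.78 to 8.43 FPKM in the GABA and taurine libraries, 1084 FPKM in the Foxl1-cre library and 123 FPKM in the control library. For the 12 leukocyte markers the sums were 4.98 to 17.1 FPKM in the GABA and taurine libraries, 239.6 FPKM in the Foxl1-cre library and 194 FPKM in the control library. Their part in the differences was not tested. Leaving out either genotype library or any GABA and taurine library gave 22 or 23 members higher and 2 lower, alternatives chosen after the data were seen.

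**Figure D4:**
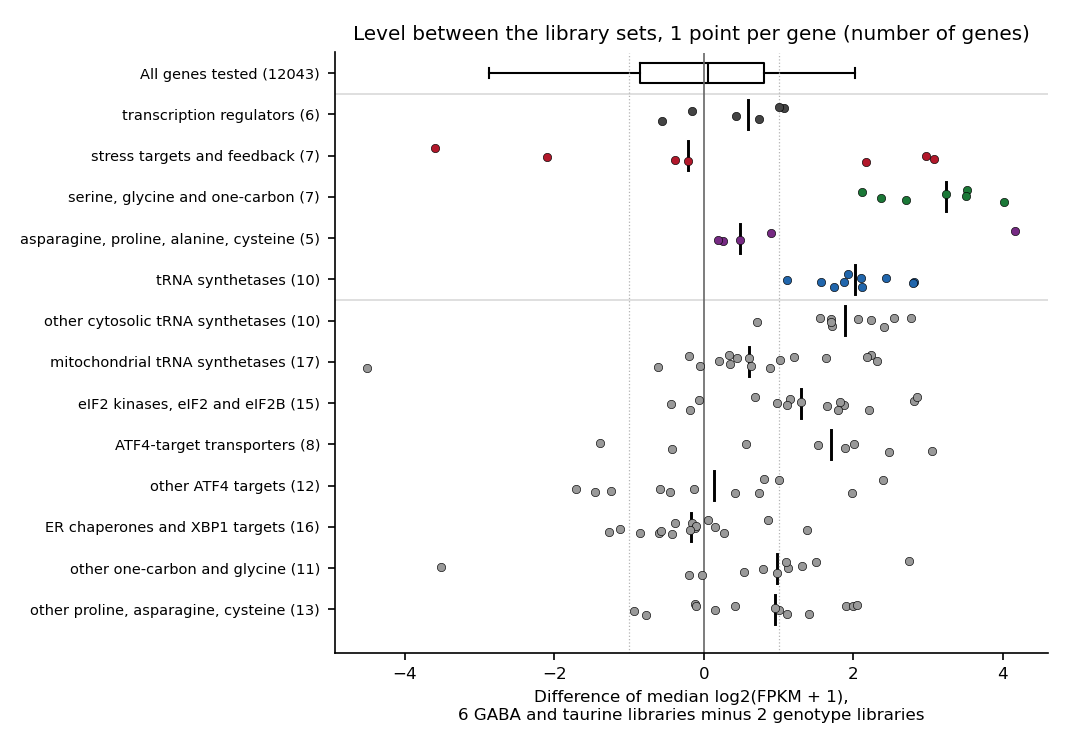
Difference in median log2(FPKM + 1) between the GABA and taurine libraries and the genotype libraries, 1 point per gene, by role and for 8 related gene lists; black ticks are medians, the box holds the quartiles of all 12043 genes with whiskers from the 5th to the 95th percentile, and dotted lines mark 2-fold. The 7 serine, glycine and one-carbon enzymes and the 10 tRNA synthetases lie right of the 2-fold line, and the stress targets lie on both sides.

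Related genes of the pathway were read from lists that are not part of the 36. The other cytosolic tRNA synthetases had 9 of 10 at least 2-fold higher in the GABA and taurine libraries, with a median log2 difference of 1.89, and the largest was that of Rars, the arginyl enzyme, at 2.77. Of 17 mitochondrial tRNA synthetases 6 were higher and 1 lower, with a median of 0.61. The lower one was Lars2, at 111 to 146 FPKM in the GABA and taurine libraries, 2591 FPKM in the Foxl1-cre library and 2728 FPKM in the control library. Its level is uncertain, since the mouse locus is known to hold a stretch resembling ribosomal RNA.

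Upstream of ATF4, 10 of 15 genes for eIF2, eIF2B, the eIF2 kinases and related regulators were at least 2-fold higher and none lower. The regulators in this list are Gcn1l1, Impact and Ppp1r15b. The median was 1.30, and the largest difference was that of the eIF2 subunit Eif2s2, at 2.86. Amino acid transporters known as ATF4 targets had 5 of 8 higher and 1 lower, led by Slc7a5, a carrier of large neutral amino acids, at 3.06. Other one-carbon and glycine genes had 5 of 11 higher and 1 lower, and the largest difference was that of Tyms, thymidylate synthase of DNA synthesis, at -3.52. Other proline, asparagine and transsulfuration genes had 6 of 13 higher and 0 lower, led by Prodh, which degrades proline, at 2.05. Further ATF4 targets had a median of 0.14, with 3 higher and 3 lower of 12, near the 19.7% higher and 21.9% lower of all genes, and the translation inhibitor Eif4ebp1 had 2.40. ER chaperones and XBP1 targets, which report other branches of the unfolded protein response, had 1 higher and 2 lower of 16 and a median of -0.17, and the largest difference was 1.38 for Ern1, the sensor IRE1. Between 6 h and 0 h, 0 of the 101 related genes tested passed in limma, where 0.238% of all genes passed as higher and 0.312% as lower. An unadjusted p under 0.05 was found for 21 of the 101, 7 higher and 14 lower, against 9.38% of all genes.

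Between the Foxl1-cre and control libraries, Pycr1, Psat1 and Asns had the largest positive differences in the set and Mthfd1l the largest negative one. On the log2(FPKM + 1) scale none reached 2-fold, while Pycr1 had a ratio of 2.24 in FPKM. Of 33 members that averaged 1 FPKM or more over these 2 libraries, 0 were at least 2-fold higher in the Foxl1-cre library, against 1.36% of all genes, and 0 at least 2-fold lower, against 2.22% of all genes, counts that at these shares say nothing particular about the set. Chac1, Cth and Cbs were under the minimum. With 1 library each there is no test and no replicate check. At any size, 24 members were higher, against 55% of all genes, and 9 lower, against 45% of all genes. The median log2 difference was 0.12 for the members and 0.04 for all genes, and under upper-quartile scaling it was 0.04 for the members and -0.04 for all genes, with 20 members higher and 13 lower. All 6 transcription regulators were higher as deposited but only 2 of 6 under upper-quartile scaling.

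Pycr1 had the largest difference, at 5.91 FPKM in the Foxl1-cre library and 2.64 FPKM in the control library, a log2(FPKM + 1) difference of 0.93. Psat1 followed at a log2 difference of 0.66, and Asns at 0.65, from the values given above. On the lower side Mthfd1l, at 1.08 FPKM in the Foxl1-cre library and 2.06 FPKM in the control library, had -0.55. Phgdh had -0.21 and Psph -0.17, opposite in sign to Psat1. These are small differences between 1 library each, and the level of Psph is uncertain because it shares exon sequence with Cct6a. Atf4 had 0.21 and Sesn2 0.49. The tRNA synthetases ranged from -0.05 for Tars to 0.38 for Gars.

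All 15 epithelial markers were higher in the Foxl1-cre library and summed to 1084 FPKM there against 123 FPKM in the control library. Car1 alone was at 614 FPKM in the Foxl1-cre library and 57.2 FPKM in the control library. Of the 12 leukocyte markers 9 were higher in the Foxl1-cre library, with sums of 239.6 FPKM there and 194 FPKM in the control library. Of the 10 endothelial markers 2 were higher, with sums of 43.3 FPKM in the Foxl1-cre library and 70.6 FPKM in the control library. Their part in the genotype differences was not tested. Among related genes, Gpt, the cytosolic alanine aminotransferase, was the only one past 2-fold, at 3.91 FPKM in the Foxl1-cre library and 0.902 FPKM in the control library.

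**Figure D5:**
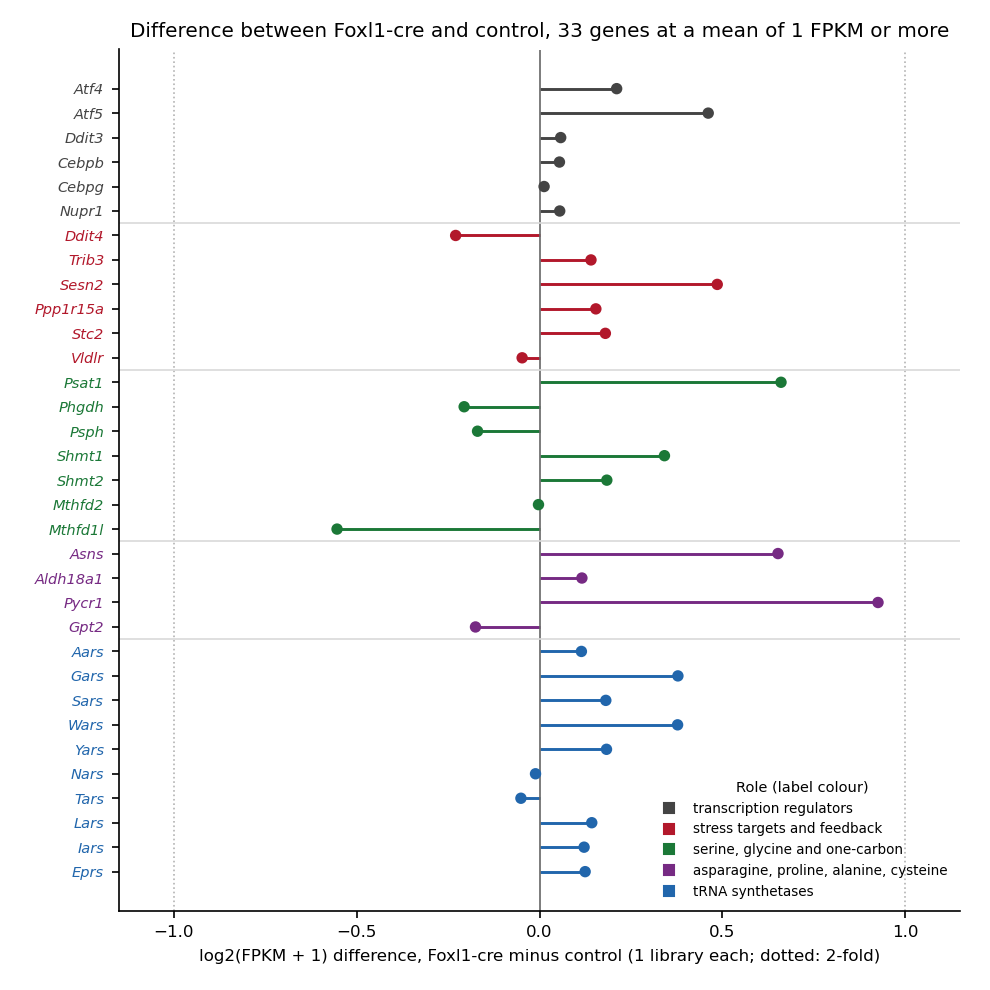
Difference in log2(FPKM + 1) between the Foxl1-cre library and the control library for 33 members, 1 library each, by role. On this scale no point lies past the dotted 2-fold lines, with Pycr1 (0.93) highest and Mthfd1l (-0.55) lowest.

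Some members share exon sequence with another gene on the opposite strand, and without strand their reads cannot be told apart. Psph shares 452 bases with Cct6a on the opposite strand, a chaperonin gene at 427 FPKM at 6 h and 436 FPKM at 0 h, 70.7 FPKM in the Foxl1-cre library and 64.1 FPKM in the control library, so that the level of Psph is uncertain. Cebpb shares 312 bases with Tmem189, Shmt1 184 with Smcr8, Atf5 82 with Nup62 and with Il4i1, and Ddit3 68 with Mars.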

How the data were processed

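The authors deposited 1 table of FPKM values per library, each with the same 24346 gene symbols, per the file headers. Cuffdiff 2.2.1, TopHat2 2.1.1, SAMtools 0.1.18, Bowtie2 2.2.8 and the mm10 build are listed, without roles, per the submitters' processing notes. The sources used here do not give the scaling of libraries, the annotation or the handling of multi-mapping reads. Libraries were made with SMART-Seq HT and Nextera XT kits, per the labels' protocols, and these kits do not mark strand. No read counts were used, so depth is unknown and no counting interval is given.

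Values were analysed as log2(FPKM + 1), a scale that understates the change of low genes. The time comparison was fitted in limma 3.58.1 (R 4.3.3) with an intensity trend over all genes averaging 1 FPKM or more, and the script was tested on simulated data. The genotype comparison and the levels between library sets are differences with no test, and past 2-fold means at least 1 on the log2 scale, in the library sets also with no overlap. Upper-quartile scaling, other pseudocounts and filters, no trend, a replicate block and leaving out libraries were tried as alternatives.

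The 36 members and the related lists were chosen with earlier results of these data known. Values in every library were given for members past the threshold in time, members with no overlap in time and a log2 difference of at least 0.2 in size, the 8 largest differences between sets, and Atf4, Asns, Psat1, Phgdh, Ddit3 and Trib3. Other members with values were added after these were seen. Of related lists, the largest difference between sets and any gene past 2-fold in genotype were named. Of promoters in the rule, Trib3 is shown as a site of 30 bases, and those of Ddit3 and Atf5 held no core and are not printed. The site of 1 further member is not reported here. Promoter windows came from RefSeq (GRCm38.p6), and exon overlaps from GENCODE M21 on the same assembly. Gene coordinates are also on that assembly.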

Additional observations from a re-analysis of the deposited data

How the results depend on the processing

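The counts of the time comparison depended on the processing. As reported, 26 genes were higher and 34 lower at 6 h. No filter on low values gave 0 higher and 0 lower (631 and 691 at an unadjusted limma p under 0.05), and no intensity trend gave 0 and 0 (516 and 444). Leaving out 1 library gave 0 to 47 genes higher and 2 to 68 lower. Members past the threshold numbered 1 as reported, 0 without the filter, 0 without the trend, 0 with a minimum of 10 FPKM, where Chac1 was not tested, and 0 to 1 when 1 library was left out. The causes were not tested. The replicate block gave 14 genes higher and 9 lower and kept 1 member, Chac1, at a limma adjusted p of 0.0169. The deviations of same-numbered libraries from their group means correlated at -0.04, 0.01 and -0.03 across 10910 genes. Such values cannot show whether same-numbered libraries share a source, and the labels do not say. Over 13 alternatives, 33 of 435 time differences of members changed sign, in 14 of 34 members, none of them past the threshold. In the genotype comparison, genes past 2-fold were 204 higher and 332 lower as reported, 384 and 766 with a pseudocount of 0.1, and 44 and 33 with a minimum of 10 FPKM. A pseudocount of 0.1 put 1 member, Pycr1, past 2-fold, and upper-quartile scaling moved the members' median to 0.037. Between library sets, upper-quartile scaling left 1581 genes higher, a minimum of 10 FPKM left 860 lower, and 1 member lower at that minimum. With 3 libraries a group and depth unknown, small differences of low genes are not resolved.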

Other observations

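One gene of the related lists came close to the threshold in time and was chosen after its values were seen. Eif2ak2, which encodes the eIF2 kinase PKR that responds to double-stranded RNA, was at 4.54, 4.82 and 6.74 FPKM at 6 h and 2.48, 2.68 and 3.04 FPKM at 0 h. Its groups did not overlap, and its log2 difference was 0.76 (limma adjusted p = 0.0686). It was at 3.88 FPKM in the Foxl1-cre library and 7.37 FPKM in the control library.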
